A study of Homo sapiens with 6 samples.

Results

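The genes described here are the protein-coding genes of human chromosome 19 whose symbol begins with ZNF, taken by symbol and position from the GENCODE version 44 annotation. The rule gave 249 of 20046 protein-coding gene records. For each DDX5 peak list, the values below give which of these genes held an interval, where in the gene its summit lay, and how far the lists shared it. An interval is a stretch that the authors' peak caller reported, and its summit is the highest point within it. Of the 93198 intervals in the lists, 647 had their summit inside a member gene, 182, 184 and 281 in replicates 1, 2 and 3. A total of 3 members (ZNF559-ZNF177, ZNF625-ZNF20 and ZNF816-ZNF321P) are joined records that span a neighbouring gene, and they took no interval. That left 246 genes and 631 intervals that could be given to a single gene.

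The study asked which RNAs the RNA helicase DDX5 binds in rhabdomyosarcoma cells. RNA was co-precipitated with a DDX5 antibody from nuclear extracts of RH30 and sequenced (RIP-seq), in 3 biological replicates beside 3 INPUT samples taken without an antibody. RH30 is an established alveolar rhabdomyosarcoma line, untreated here, that carries the PAX3-FOXO1 fusion in every sample. The INPUT samples were not analysed here, so there is no comparison between groups, and the values below describe the 3 immunoprecipitates.

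Zinc finger proteins of the C2H2 class carry an array of short finger modules, each folded around a zinc ion and joined to the next by a conserved linker, and in most of these genes a single long terminal exon codes for the whole array. Many also carry a KRAB domain, which recruits TRIM28 (KAP1) and through it chromatin repressors to the bound DNA, often at transposable elements. The genes arose by repeated tandem duplication and lie in clusters along chromosome 19, so neighbouring members can be close in sequence.

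The lists held 23715, 23651 and 45832 intervals in replicates 1, 2 and 3. Their sequencing depth is not known, and the number of intervals in a list can depend on it. The fold enrichment of an interval is the authors' value over the caller's background; which library served as control is not given in the sources used here, so fold can reflect how abundant an RNA is. The library kit did not keep strand, so sense and antisense RNA could not be told apart. Of 9 genes fixed as markers of the skeletal muscle lineage and of the fusion, 8 held an interval in every list, among them MYOD1 and MYOG, and MYMK in 2 lists. Over all protein-coding genes, 23.2% held one in every list. These counts give the presence of an interval and not a level of expression.

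The 6 stretches below were chosen because they show what the zinc finger exons share. They are 30 bases each of the GRCh38 reference, on the strand of the gene and 5′ to 3′, within 147 bases of the summit of an interval. The capitals mark the octamer GAGAAACC, which recurs in the coding sequence of the linkers. In ZNF91, ZNF724, ZNF43, ZNF675 and ZNF85 the copy shown has finger matches on both sides of it, and in ZNF805 it follows the last one.
ZNF805, chr19:57254664-57254693, plus strand: tacataccaaaGAGAAACCccacaagtgtc
ZNF91, chr19:23360326-23360355, minus strand: ttcatactaaaGAGAAACCttccaagagtg
ZNF724, chr19:23222636-23222665, minus strand: ttcatgctggaGAGAAACCctacaaatgtg
ZNF43, chr19:21807996-21808025, minus strand: ttcatactggaGAGAAACCctacaaatgtg
ZNF675, chr19:23653738-23653767, minus strand: ttcataccgaaGAGAAACCctacaaatgta
ZNF85, chr19:20950022-20950051, plus strand: ttcatactggaGAGAAACCatacaaatgtg

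The next 3 stretches lie at summits outside the zinc finger exons and were chosen because they belong to the interval with the highest −log10 q of their gene at that place (in ZNF626, 1 of 2 tied intervals). The capital marks the base at the summit.
ZNF85, last intron, chr19:20943982-20944011, plus strand: agcttatttgactctAtattttccagtttg
ZNF626, last intron, chr19:20644105-20644134, minus strand: taaaggccaaggtaTgcaggcctgcctaca
ZNF675, past the end of the canonical transcript, chr19:23651295-23651324, minus strand: tatatagcacatttTgatacagacatataa

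Roughly as many zinc finger genes as other genes held an interval in a single list, but fewer held one in every list. In replicates 1, 2 and 3, 69, 87 and 100 of the 246 members held an interval, which is 28%, 35.4% and 40.7%. Over all 19396 protein-coding genes the same shares were 32%, 32.9% and 42.4%. Every list held an interval in 40 members (16.3%), against 23.2% of all protein-coding genes, 20.3% of the 1145 other genes of chromosome 19 and 21.6% of the 264 ZNF genes of other chromosomes. The intervals of such a gene need not lie at the same place in each list. Per list, the other genes of chromosome 19 stood at 30%, 24.2% and 39%, and the ZNF genes of other chromosomes at 31.1%, 37.5% and 50.4%. At least 1 list held one in 130 members (52.8%), against 48.1% of all protein-coding genes. Of the members with any interval, 30.8% thus had one in every list, against 48.3% of all protein-coding genes with any, 48.4% of the other genes of chromosome 19 and 36.8% of the ZNF genes of other chromosomes. A member with an interval held 2.46 ± 0.361 of them (SD, n = 3 lists), against 3.98 ± 1.03 for the other protein-coding genes. Other genes of chromosome 19 were closer, with 2.89 ± 0.639, and in replicate 1 they held fewer than the members (2.49 against 2.55). ZNF genes of other chromosomes held 3.47 ± 0.432.

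The rank of the members differed between lists. A gene's intervals were ordered by −log10 q within each list, and the fold of its first interval is called its best fold. Another interval of the same gene can therefore have a higher fold, as in ZNF426 in replicate 2 (2.81 against a best fold of 2.61). Across the members present in both lists, Spearman's rho of the best fold was 0.24 between replicates 1 and 2 (45 genes), 0.55 between 1 and 3 (59 genes) and 0.48 between 2 and 3 (62 genes). These are descriptions across genes that share their libraries, and genes are no replicates. Of the members found in replicate 1, 85.5% were also in replicate 3, and 59% of those in replicate 3 were in replicate 1. The 5 members with most intervals held 30.1%, 25.7% and 20.7% of all member intervals in replicates 1, 2 and 3. ZNF91 alone held 12.5%, 11.2% and 7.97%.

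Most coding summits of the members lay in the zinc finger exon, which also makes up most of their coding length, and introns took a larger share of summits than in other genes. The zinc finger exon held 33, 55 and 93 summits in replicates 1, 2 and 3, or 18.8%, 30.7% and 33.7% of the member intervals. The 3′ UTR held 39.2%, 30.7% and 28.3%. Introns held 31.8%, 34.6% and 25.4%. Replicate 1 was lowest for the zinc finger exon and highest for the 3′ UTR. Other coding sequence held 5.86% ± 3.16 of the intervals, 5′ UTRs 1.98% ± 0.755 and non-coding exons 1.1% ± 0.93 (SD, n = 3 lists).

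**Figure D1:**
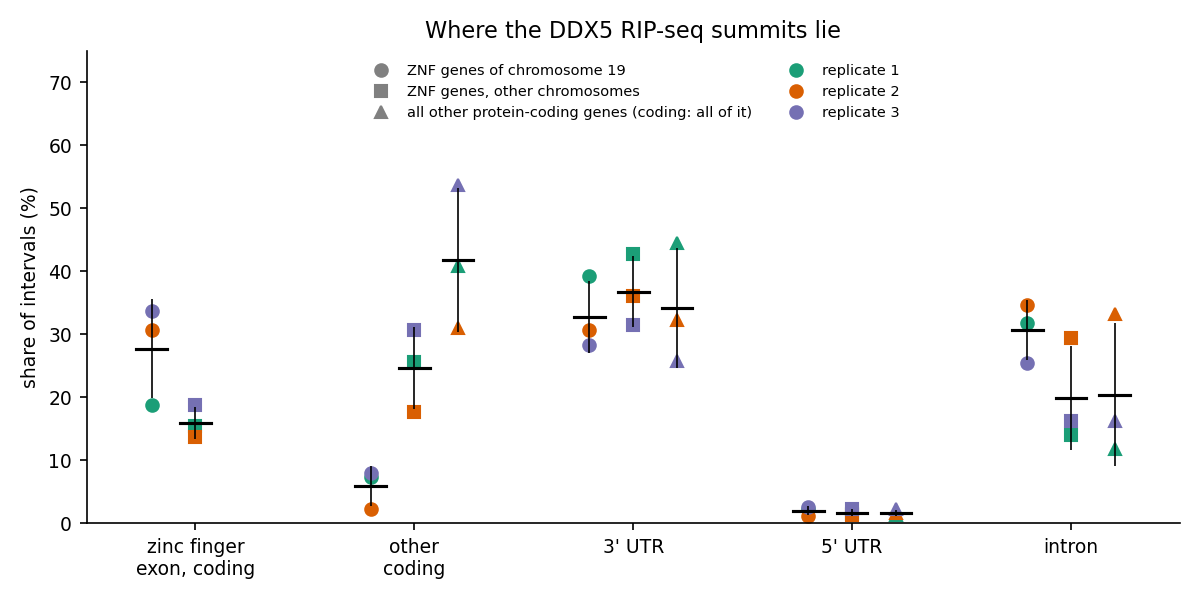
Share of intervals (%, vertical axis) whose summit lay in each part of the gene, for the 3 lists (colours), in ZNF genes of chromosome 19 (circles), ZNF genes of other chromosomes (squares) and all other protein-coding genes (triangles, with all coding sequence in 1 column). Horizontal strokes are means and vertical bars SD over 3 lists; the intron share of the chromosome 19 genes was 30.6% ± 4.75 against 20.4% ± 11.4 for other protein-coding genes.

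Introns of the members exceeded those of all other protein-coding genes in each list, where introns held 11.8%, 33.3% and 16.2%. The differences were 20.1, 1.36 and 9.12 percentage points, on average 10.2 ± 9.40 (SD, n = 3 lists; exact two-sided sign-flip permutation p = 0.25, the smallest that 3 lists can give). The difference in replicate 2 was small. Without ZNF91, the intron share of the members was 26.6%, 32.7% and 21.3%, in replicate 2 below that of other genes. Against the other genes of chromosome 19, with 10.4%, 16.9% and 10.5%, the difference was 18.01 ± 3.26 points (exact p = 0.25).

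Coding sequence as a whole was lower in the members in 2 of 3 lists. It held 26.1%, 33.0% and 41.7% of their intervals against 40.8%, 30.9% and 53.6% in other genes, a mean difference of -8.21 ± 8.97 points (exact two-sided sign-flip permutation p = 0.5). The 3′ UTR share differed by -1.41 ± 3.96 points (exact p = 0.75), with no shared direction over the lists. The zinc finger exon held a larger share in the members than in ZNF genes of other chromosomes, at 15.4%, 13.7% and 18.7%, by 11.8 ± 7.38 points (exact p = 0.25).

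Per length, the picture was another one. The coding sequence of the members held 9.72, 12.5 and 24.3 intervals per 100 kb in replicates 1, 2 and 3, against 25.2, 18.3 and 64.6 in other protein-coding genes. The 3′ UTRs held 10.6, 8.43 and 11.96 per 100 kb against 24.5, 16.96 and 27.6. Both were lower in the members in each list, at 0.463 and 0.453 times the other genes on the mean log2 scale (exact two-sided sign-flip permutation p = 0.25 for each). Introns held 0.876, 0.97 and 1.09 per 100 kb against 0.209, 0.567 and 0.563, a ratio of 2.41 (exact p = 0.25). Against ZNF genes of other chromosomes the ratios were 0.566 for coding sequence, 0.602 for 3′ UTRs and 1.77 for introns. Against the other genes of chromosome 19 they were 0.604, 0.346 and 1.72. Within the members, the zinc finger exon held 15.8 ± 7.94 per 100 kb, about as many as other coding sequence with 14.3 ± 9.89, the 3′ UTR 10.3 ± 1.78 and introns 0.98 ± 0.11 (SD, n = 3 lists). The density of the zinc finger exon in ZNF genes of other chromosomes, 18.8 ± 9.78 per 100 kb, was higher in 2 of 3 lists (exact p = 0.5).

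Among the coding summits of the members, 71.7%, 93.2% and 80.9% lay in the zinc finger exon, which made up 80.8% of their coding length. Within that exon, 57.6%, 60% and 44.1% of summits fell on a finger, against 51.4% of the length, and 21.2%, 18.2% and 21.5% on the sequence between fingers, against 21.5% of the length. In the 5′ part of the exon, cut in 3 equal parts, lay 36.4%, 32.7% and 38.7% of summits, and in the 3′ part 33.3%, 38.2% and 32.3%. No part of the array held more than its share of length in every list.

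The linker octamer GAGAAACC, searched on both strands of the 101 bases centred on each summit, was in 33.3%, 41.8% and 28.0% of the zinc finger exon summits. It was in 29.7% of 3663 windows of that length tiled over all member zinc finger exons, and in 34.7% of 1211 windows over exons that held an interval. Other summits of the members held it in 2.10%, 2.42% and 2.73%, and coding summits of genes not named ZNF in 0.312%, 0.366% and 0.445%. The octamer followed the exon, and its share at summits was near that of the exons themselves. A match of these letters is a description and not a binding site.

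Sequence close to that of a finger also occurred past the stop codon. A reading frame with a complete finger pattern was found at 1 of 69, 2 of 55 and 1 of 78 summits in member 3′ UTRs in replicates 1, 2 and 3, in ZNF28, ZNF844 and ZNF738. In the 3′ UTRs of other protein-coding genes it was found at 2, 5 and 5 of 9571, 6637 and 10780 summits. The same pattern was found within the zinc finger exon at 36.4%, 32.7% and 26.9% of summits.

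In the 3′ UTR, summits lay a median of 1448, 1430 and 1070 bp past the stop codon in replicates 1, 2 and 3, and 37.3%, 35.2% and 47.4% lay within 1000 bp of it. The median GC content of the 101 bases around member summits was 42.6%, 40.6% and 40.6%, against 48.5%, 45.5% and 47.5% in other protein-coding genes and 57.4% in each list in the other genes of chromosome 19. It was lower in the members in each list (exact two-sided sign-flip permutation p = 0.25).

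Intron summits lay at other places in the gene than they did elsewhere. In other protein-coding genes, 68.4%, 63.2% and 72.3% of intron summits lay in a middle intron of the canonical transcript, the reference isoform of the annotation, and in the members 1.79%, 16.1% and 5.71%. The last intron, just before the zinc finger exon in most members, held 28.6%, 19.4% and 27.1% in the members and 7.72%, 8.60% and 6.88% in other genes. ZNF genes of other chromosomes were close to the members in this, with 30%, 20.5% and 26.2%. Members have few exons, which bears on the share a middle intron can hold; its part in the result was not tested.

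A further 44.6%, 27.4% and 45.7% of the members' intron summits lay past the end of the canonical transcript but within a longer annotated isoform, against 7.37%, 3.80% and 4.20% in other genes and 22.5%, 14.8% and 17.9% in ZNF genes of other chromosomes. ZNF91 supplied 15, 10 and 16 of the 56, 62 and 70 intron summits. Without it, 26.8%, 13.5% and 31.5% lay past that end, in replicate 2 below the ZNF genes of other chromosomes.

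ZNF91 is a KRAB zinc finger protein known for binding SVA retrotransposons. The gene lies on the minus strand at chr19:23304991-23395471, and 31 finger matches were counted in its coding sequence. It held 22, 20 and 22 intervals, the most of any member in each list. Its zinc finger exon was 3320 bp long and was covered by intervals over 92.9%, 76.8% and 100% of its length. From the end of the canonical transcript onward, 15, 11 and 17 intervals followed over about 20 kb. They spanned 20552, 20505 and 19812 bp and covered 62.3%, 17.6% and 64.0% of it. Their median fold was 5.23, 3.54 and 5.37, against 3.84, 2.73 and 2.70 for the intervals in exons of the canonical transcript. Intervals past the canonical end therefore had the higher median in each list. Of the 42 member regions found in every list, 10 were in ZNF91.

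ZNF805 had the highest-ranked best interval of all members. It is a KRAB zinc finger gene on the plus strand at chr19:57240632-57262728, with 13 finger matches. The best interval had a fold of 15.1, 7.44 and 12.8 in replicates 1, 2 and 3, with a mean fold of 11.8 ± 3.93 (SD, n = 3 lists). Its last exon is 9656 bp long, of which 8025 bp are 3′ UTR, and intervals covered 97.9%, 64.2% and 98.0% of it. A single interval of 6569 bp in replicate 1 and of 6551 bp in replicate 3 ran from the start of the last exon into the 3′ UTR. In replicate 2 the same exon held 8 shorter intervals, all with their summit in the 3′ UTR.

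ZNF85 and ZNF626 held their leading intervals in the last intron. In ZNF85 the best interval had a fold of 15.1, 3.84 and 12.5, and intervals with their summit in the last intron lay within 3756, 2292 and 3738 bp and covered 67.1%, 84.6% and 78.1% of that stretch. Some of these summits lie in the 3′ UTR of a shorter isoform, and 1 in replicate 1 lies in coding sequence of an isoform other than the canonical. The zinc finger exon of ZNF85 was covered over 0%, 11.4% and 8.55% of its length, so most of its interval sequence lay outside it. In ZNF626 the best interval had a fold of 8.12, 3.37 and 10.8, with 8, 1 and 5 intervals in the last intron. Replicate 2 held a single interval of 203 bp there, and the zinc finger exon of ZNF626 was covered over 0%, 0% and 32.6%. All 8 last-intron summits of ZNF626 in replicate 1 lay where 2 gene records overlap.

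**Figure D2:**
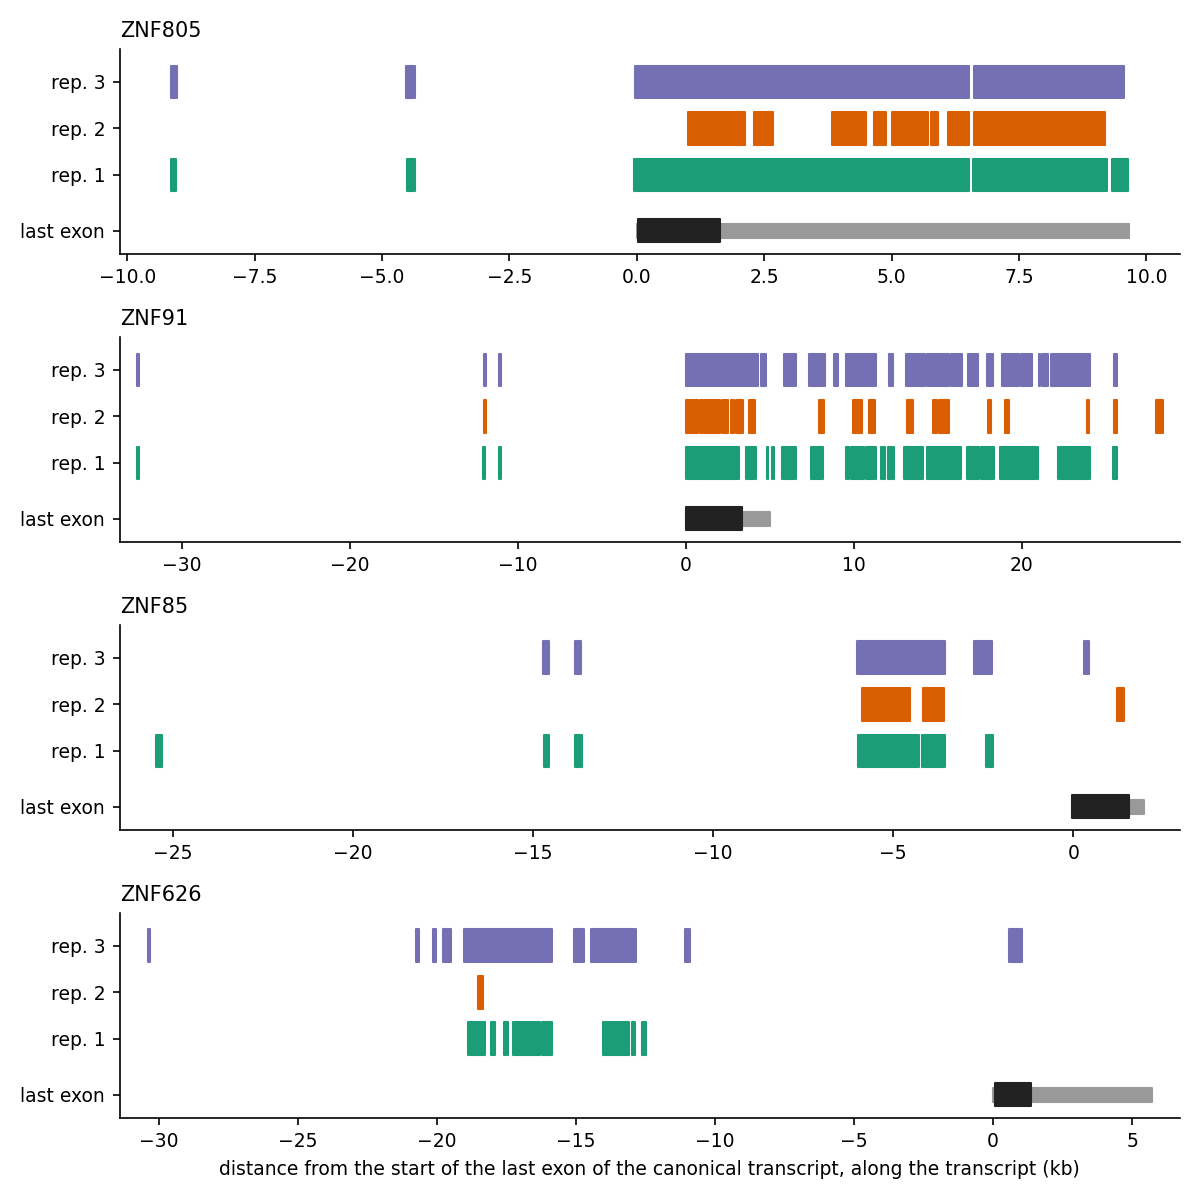
Intervals of ZNF805, ZNF91, ZNF85 and ZNF626 in the 3 lists (coloured blocks), by distance in kb from the start of the last exon along the transcript. Grey is the last exon of the canonical transcript and black its coding part. Intervals nearly fill the last exon of ZNF805 in replicates 1 and 3, less so in replicate 2, and run about 20 kb past that of ZNF91. In ZNF85 and ZNF626 most lie before the last exon and a few within it.

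ZNF675, also named TIZ for its known inhibition of TRAF6 signalling, held 9, 2 and 10 intervals, of which 5, 1 and 6 lay past the end of the canonical transcript. Its best fold was 8.43, 4.55 and 7.41. ZNF708 held 5, 5 and 4 intervals with 3 regions found in every list, and a best fold of 3.16, 3.06 and 3.78. ZNF724 held 1, 1 and 3 intervals, and its zinc finger exon was covered over 92.7%, 61.9% and 100%. ZNF43 held 3, 4 and 3 intervals and was covered over 25.98%, 63.7% and 93.3%. These genes lie near one another in 1 cluster, and their exons were covered to different degrees in different lists.

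ZNF460 showed intervals that ran past the gene. Its last exon was covered over 99.2%, 55.0% and 100%, but in replicates 1 and 3 by an interval whose summit lay beyond the gene end and was given to no gene. Those intervals were 4568 and 10065 bp wide and passed the annotated end by 1224 and 6681 bp. They were the 2 intervals over a member's last exon that passed the gene end by at least 1000 bp, among 103, 109 and 171 intervals over such exons in replicates 1, 2 and 3.

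**Figure D3:**
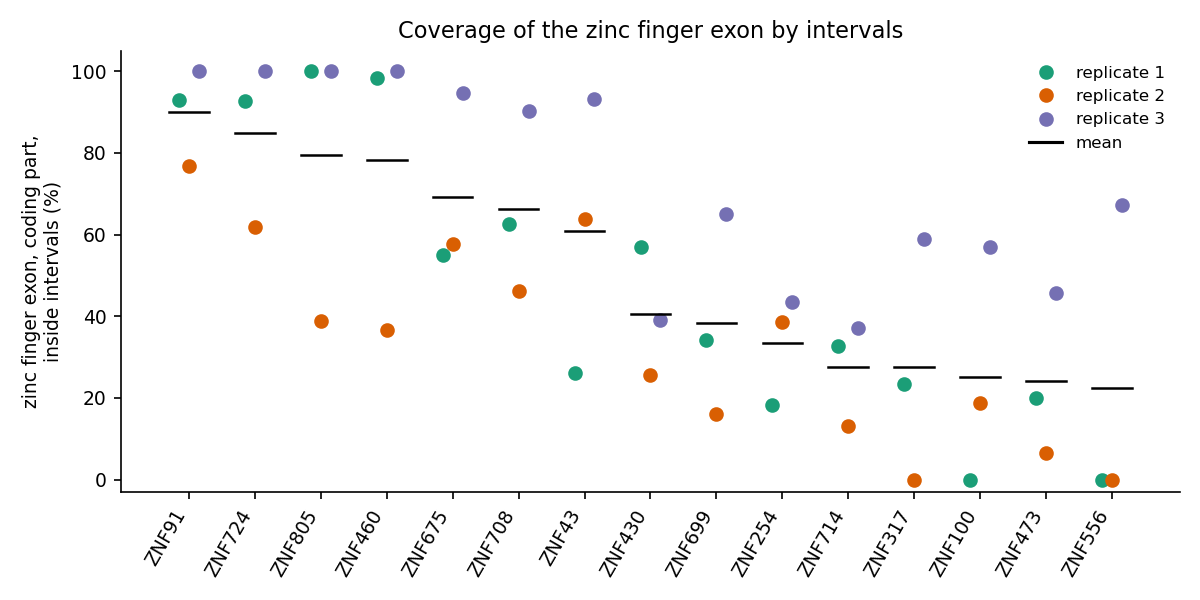
Share of the coding part of the zinc finger exon that lay inside intervals (%, vertical axis) in each list (colours), with the mean as a stroke, for the 15 members of the 40 with an interval in every list that had the highest mean, ranked after the values were seen. ZNF91 was covered over 76.8% to 100% of its exon, while most genes spread widely between lists.

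ZNF580 held 1 interval in each list, with folds of 4.77, 5.75 and 5.72, on average 5.41 ± 0.556 (SD, n = 3 lists), all in the 3′ UTR and at a place where 3 gene records overlap. ZNF574 held 1 in each list near the end of its coding sequence, which has 18 finger matches, with folds of 4.25, 6.58 and 6.38. ZNF358 held 3, 5 and 5 intervals, with a best fold of 3.04, 4.05 and 6.86, and 2, 4 and 3 of them lay in its last intron. Both ZNF580 and ZNF574 thus gave 1 interval at the same place in every list.

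In ZNF264, neighbour of ZNF805 and with a 3′ UTR of 9865 bp, 6, 2 and 8 of its 6, 2 and 9 intervals had their summit in the 3′ UTR. ZNF714 had a best fold of 5.77, 5.13 and 9.22, and ZNF317 of 4.39, 3.98 and 9.22. ZNF426 held 7, 2 and 3 intervals, mostly in the 3′ UTR, with a best fold of 3.76, 2.61 and 3.07. ZNF473 (ZFP100), a factor in histone pre-mRNA processing, held 4, 2 and 7 intervals in its zinc finger exon and 3′ UTR, with a best fold of 4.82, 4.42 and 3.62. Its 4 summits in replicate 1 lay where 2 gene records overlap. The values of ZNF714 lay above those of ZNF426 and ZNF473 in every list, while those of ZNF317 and ZNF473 overlapped.

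**Figure D4:**
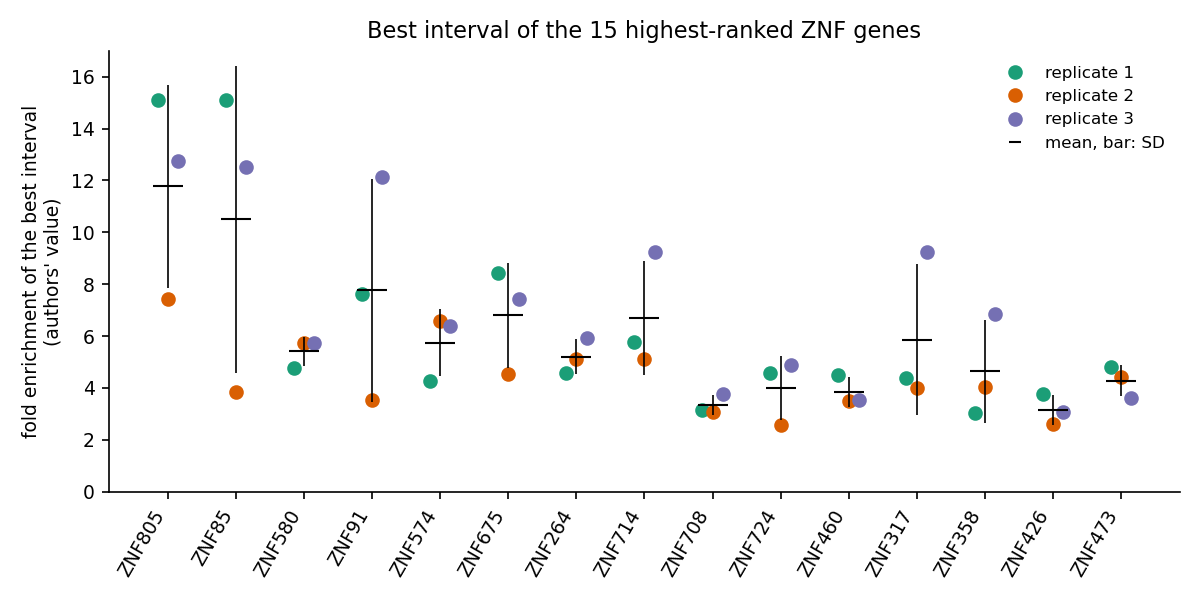
Fold enrichment (authors' value, vertical axis from 0) of the interval with the highest −log10 q of each gene, in each list (colours). Shown are the 15 members placed highest when that −log10 q was turned into a percentile within each list and averaged. Strokes are means and bars SD over 3 lists; ZNF805 and ZNF85 lie above 12 in replicates 1 and 3 and at 7.44 and 3.84 in replicate 2.

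Along the chromosome, the members fell into 20 clusters when a gap of over 500 kb between neighbours opened a new one. The cluster at chr19:19668796-24129968, which holds ZNF91, ZNF85, ZNF626, ZNF675, ZNF708, ZNF724, ZNF714 and ZNF43, had 37 members. Of these, 17, 22 and 24 held an interval in replicates 1, 2 and 3, and 13 (35.1%) in every list. With 37 of the 246 members, the cluster held 72, 65 and 102 intervals, or 40.9%, 36.3% and 37.0% of all member intervals. ZNF91 alone supplied 22, 20 and 22 of them. The 9 members of this cluster without an interval in any list include the run ZNF208, ZNF676, ZNF729, ZNF98, ZNF492, ZNF99, ZNF723 and ZNF728, broken only by ZNF257 and singled out after the values were seen. ZNF208 has the most finger matches of all members, 36.

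The clusters differed in how many members were found in every list. The share was 16.3% over all members and 23.2% over all protein-coding genes. At chr19:8509678-9793180, the cluster of ZNF317 and ZNF426, 5 of 13 members (38.5%) held an interval in every list. At chr19:57191500-58481230, which holds ZNF264, ZNF805 and ZNF460, it was 7 of 43 (16.3%). At chr19:51571283-53580269 it was 4 of 39 (10.3%). The first by rank was ZNF331, an imprinted gene in some tissues, with a best fold of 3.43, 4.97 and 4.27. At chr19:36182276-37817300 it was 3 of 26 (11.5%), with ZNF850 ranked first.

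Each of the remaining clusters held at most 2 members found in every list. At chr19:55476617-56671783 the count was 2 of 16 (12.5%), with ZNF580 first. At chr19:11483427-12640098 it was 1 of 25 (4%), ZNF20, and at chr19:43525497-44500524 1 of 23 (4.35%), ZNF155. At chr19:2819868-2944971 it was 1 of 5 (20%), ZNF556. In 3 smaller clusters, of 2, 2 and 1 members, ZNF358, ZNF574 and ZNF473 were each the only such gene. An interval in every list did not always mean a shared place. No region of ZNF20, ZNF155, ZNF331, ZNF556, ZNF714 or ZNF850 was found in every list. In ZNF20 and ZNF155 every region had its best summit in an intron. The ZNF20 summits of replicates 1 and 2 lay where 2 or 3 gene records overlap. The 5 members at chr19:34677639-34964229 (ZNF302, ZNF181, ZNF599, ZNF30 and ZNF792) held no interval in any list. Expression of these genes in RH30 was not measured here, and its part in the pattern was not tested.

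Other protein-coding genes lie within the bounds of 10 of the 20 clusters, and 5 clusters hold at least 10 of them. None of 14 held an interval in every list in the cluster of ZNF317, none of 23 in that of ZNF580, 1 of 14 in that of ZNF331, 2 of 13 in that of ZNF805 and 2 of 10 in that of ZNF155. The share was below that of the members in the first 4 and above it in the cluster of ZNF155, and with 7 of 43 members in the cluster of ZNF805 the shares there were close.

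**Figure D5:**
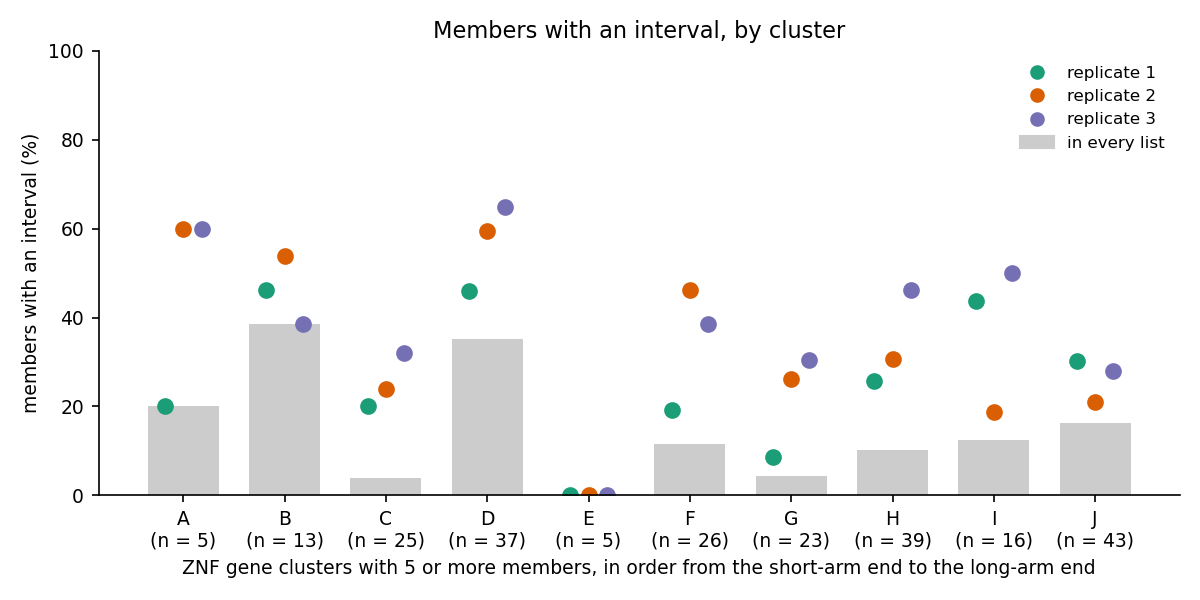
Share of members with an interval (%, vertical axis) in each list (points) and in every list (grey bars), for the 10 clusters with at least 5 members, in order along the chromosome from A to J. B (13 members) and D (37 members) have 38.5% and 35.1% in every list, and E (5 members) has none.

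Merged across lists wherever they shared at least 1 bp, the member intervals formed 419 regions. Of these, 298 were found in 1 list, 79 in 2 and 42 (10.0%) in all 3, against 14.1% of the 53944 regions of other protein-coding genes. Regions found in 1, 2 and 3 lists had median widths of 157, 295 and 943.5 bp. Wider regions can meet another list more easily. By feature, 12 of 123 regions in the zinc finger exon, 15 of 123 in the 3′ UTR and 13 of 129 in introns were found in all lists. The number found in all lists fell to 10 when a reciprocal overlap of 50% was required and to 20 with summits within 100 bp.

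Of the member intervals, 28.4%, 35.2% and 15.9% touched an interval of both other lists, against 38.9%, 39.5% and 18.8% in other protein-coding genes, lower in each list (exact two-sided sign-flip permutation p = 0.25). Intervals of at least 1000 bp made up 5.11%, 3.35% and 6.16% of the member intervals against 0.908%, 1.08% and 1.57% (exact p = 0.25). The median width itself, 176, 217 and 178 bp, was close to the 175, 196 and 190 bp of other genes. A few genes carried the wide intervals: ZNF91 and ZNF805 held 7 of 9, 2 of 6 and 8 of 17. Without both, 1.34%, 2.65% and 3.6% of member intervals were that wide, and in ZNF genes of other chromosomes 2.10%, 1.33% and 3.28%. The median fold of 3.15, 3.24 and 3.12 stood against 2.61, 3.16 and 2.90, a mean log2 ratio of 0.14 ± 0.12 (exact p = 0.25). Against the other genes of chromosome 19 that log2 ratio was -0.07 ± 0.14 (exact p = 0.75).

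Since members are close in sequence, the 50 bases at each summit were searched in the genome. They occurred more than once for 3.41%, 5.03% and 3.62% of member intervals, against 2.67%, 2.57% and 2.83% in other protein-coding genes. How reads that match several places were handled is not given in the sources used here. A second gene record covered 21.6%, 18.99% and 28.3% of member summits against 13.2%, 12.4% and 12.3%, so some of their RNA may belong to an overlapping gene.

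In gene structure, members found in every list had longer 3′ UTRs and genes than those found in none, as did members found in 1 or 2 lists. Of the 246 members, 244 had an exon with finger matches and in 240 it was the last. The median number of finger matches was 12 both in the 40 members found in every list and in the 116 found in none. The median 3′ UTR was 2071.5 bp in the former and 1286 bp in the latter, and the median gene 30349 and 19829.5 bp. In members found in 1 list these medians were 1997 and 27740.5 bp, and in 2 lists 1793.5 and 29223 bp. The median zinc finger exon was 1497.5 bp in members found in every list and 1574 bp in those found in none. A longer transcript offers more sequence for an interval, and its part was not tested.

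Genes of the repressor machinery that KRAB zinc finger proteins recruit were also in the lists. Of 20 such genes, 13 held an interval in every list, 3 in 2 lists and 4 in 1, against 23.2% of all protein-coding genes in every list. These 20 genes were chosen with earlier results of these data known. The part of their length and expression in the count was not tested. TRIM28, the corepressor that binds the KRAB domain and itself a gene of chromosome 19, held 5, 1 and 5 intervals, with a best fold of 3.40, 4.15 and 3.50. UHRF1, which brings DNMT1 to newly copied DNA, had a best fold of 5.23, 5.19 and 7.17. The chromatin remodellers CHD3 and CHD4 held 16, 11 and 27 and 22, 11 and 31 intervals. The histone methyltransferase SETDB1 held 2, 0 and 1.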

How the data were processed

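The deposited files are 1 peak list for each of the 3 DDX5 immunoprecipitates; per the submitters' processing notes bcl2fastq 2.20, FastQC 0.11.8, cutadapt 1.11, STAR 2.6.1d, SAMtools 1.10, MACS2 2.2.7.1 were run, with GRCh38/hg38 as the build. Parameters and the control of the peak calls are not given in the sources used here. The authors' fold enrichment is a ratio over the caller's background. Each summit's p-value and q-value were deposited on the −log10 scale. The score the authors deposited is a scaled q and plays no part here. The largest deposited q-value was 0.0499 in each list. Depth is unknown, so no counting interval is given.

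Summits that shared an interval were counted once, at the best summit by −log10 q. A summit was given to a protein-coding gene of GENCODE version 44, joined records left out, if exactly 1 gene's exon, or else exactly 1 gene's body, held it. Features were taken with coding sequence before 5′ UTR, then 3′ UTR, other exons and introns, over all transcripts of the gene. A finger match is C, 2 residues, C, 12 residues, H, 3 to 5 residues, H, in the translated coding sequence of the canonical transcript; the zinc finger exon holds most of them. Exon coverage counts every interval, whichever gene it was given to. The named genes are the first 15 members with an interval in every list by best −log10 q (percentile within a list, averaged), the first of each cluster, and the 5 members each with most intervals, the widest interval and most regions found in every list; others are marked. Members, gene lists and this rule were chosen with earlier results of these data known. Density per length, the search for finger frames in 3′ UTRs, intervals past gene ends, neighbouring genes within clusters and the values without ZNF91 or ZNF805 were added after the data were seen. Differences within a list went through a two-sided sign-flip permutation test, exact over the 3 lists. Its p-value cannot go below 0.25, and it is 0.25 whenever all 3 differences have the same sign, whatever their spread. It speaks only of these samples. No adjustment over tests was made, since none could pass. Assignment, merging and the test were tested on simulated data. Python 3.11.15, pandas 2.3.3, numpy 2.4.6 and pysam 0.24.0 were used. Alternatives covered q, fold, list length, each replicate, single summits, canonical features, other comparison genes and definitions of overlap.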

Additional observations from a re-analysis of the deposited data

How the results depend on the processing

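No paired analysis was possible because only the immunoprecipitates were analysed, so no groups sharing replicate numbers were compared. Of 101 values of the main results under an alternative, 65 stayed within 1.5 times a count or within 1 SD of a value, 27 moved further and 9 changed sign; the causes were not tested. Members with an interval in every list, 40, numbered 19 with −log10 q of at least 5 and 9 with a fold of at least 4. There were 16 without intervals that had fold and p in common with at least 9 others of their list. Those shared pairs made up 59.7%, 61.5% and 75% of member intervals. The members numbered 32 with only exonic summits and 29 with only summits in no second gene record. With 1 replicate left out they numbered 45 to 62. That setting asks only for the remaining lists, so it cannot give fewer than 40. Member intervals per list, a mean of 210.3, fell to 103.3, 59 and 69.7 under the same first 3 settings and were 390.7 with each summit on its own and 177.5 to 227.5 with 1 replicate left out. Regions found in every list, 42, numbered 17, 6 and 14 under these settings, 10 with reciprocal overlap of 50% and 20 with summits within 100 bp. With 1 replicate left out, 61 to 86 were found in both remaining lists, a looser demand than all 3.

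The share in the zinc finger exon, 27.7%, was 16.3% with a fold of at least 4 and 40.4% without shared pairs. The coding share, -8.21 points against other genes, turned to 3.06 without shared pairs. The 3′ UTR difference, -1.41 points, was -5.60 with the stricter q, -11.2 without shared pairs, 0.0301 with equal list lengths, 0.201 without ZNF91 and ZNF805 (chosen after the data were seen) and -3.40 to 0.555 with 1 replicate left out. The intron difference kept its sign under all its alternatives, with 5.24 to 14.6 points over the lists left out. The log2 ratio of median widths, 0.02, was 0.35 with the stricter q, 0.56 with the fold minimum, 0.24 with equal lengths, 0.67 with each summit on its own and 0.32 without shared pairs. It was -0.0305 against other chromosome 19 genes, -0.15 against ZNF genes of other chromosomes, -0.0403 without ZNF91 and ZNF805 and -0.043 to 0.0775 with 1 replicate left out. The log2 ratio of median folds, 0.14, was 0.28, 0.26 and 0.44 with the stricter q, single summits and no shared pairs, and -0.066 against other chromosome 19 genes. With only summits whose 50 bases occur once (added after the data were seen), 39 members and 41 regions were found in every list. Best folds of the 22 named members moved beyond 1 SD for 8 when the median over a gene's intervals replaced the best. The share of soft-masked bases was not run, since the genome used does not mark them. Unknown depth limits every count per list.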
